A study of Mus musculus with 24 samples.

Results

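Leptin (Lep) was grouped with Sncg, Npr3, Sfrp5 and Bmp3, 4 genes taken here as tied to fat mass. All 5 genes were followed across white adipose tissue (WAT) and brown adipose tissue (BAT) of mice on 3 diets. They were taken by gene symbol, which gave 11 of the 45281 probes on the array and 5 of the 19053 named genes. The 5 genes and the gene lists below were chosen with earlier results of these data known. Counts of them set beside the shares of all genes are therefore a description. Lep had 1 probe, ILMN_2695964. Sncg had 2 probes, Npr3 had 6, Sfrp5 had 1 (ILMN_1232779) and Bmp3 had 1 (ILMN_1235433). All mice were male C57Bl/6J, with no allele or other agent named. The diets were a high-fat diet with eicosapentaenoic and docosahexaenoic acid (EPA/DHA), which are long-chain omega-3 fatty acids, a high-fat diet with corn oil, and a low-fat diet. Each of the 6 groups of tissue and diet held 4 Illumina arrays, 24 in all, and the mice had been picked as typical of their diet in body weight and plasma lipids. The labels give no WAT depot and no age, and the extraction text names skeletal muscle as the source of the RNA. The series title names adiposity-related genes, and the comparisons below ask how the 5 genes differ between diets in each tissue.

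Leptin is the hormone through which adipocytes report energy stores to the hypothalamus, and its blood level follows fat mass. Its gene is expressed mainly in white adipocytes, rises with adipocyte size and is low in brown fat of lean animals. Npr3 encodes the clearance receptor that removes natriuretic peptides, which stimulate lipolysis and, in brown fat, thermogenesis. Sfrp5 encodes a secreted frizzled-related protein that binds Wnt ligands. Bmp3 encodes a bone morphogenetic protein that opposes the signalling of other members of its family. Sncg encodes gamma-synuclein, a small cytosolic protein of neurons and white adipocytes.

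The promoters are shown because pairs of the genes varied together across arrays. The 200 bases below run from 150 before to 50 after the transcription start, on the strand of the gene, from RefSeq (GRCm38.p6). Lep lies at chr6:29060071-29060270 (+), Sncg at chr14:34374620-34374819 (-), Npr3 at chr15:11907322-11907521 (-) and Sfrp5 at chr19:42202203-42202402 (-). Bmp3 is not shown. Capitals mark the motifs found.
Lep: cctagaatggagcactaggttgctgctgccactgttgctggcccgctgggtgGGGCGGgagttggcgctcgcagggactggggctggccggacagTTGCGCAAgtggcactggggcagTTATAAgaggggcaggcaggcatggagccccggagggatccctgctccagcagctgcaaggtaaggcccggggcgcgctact
Sncg: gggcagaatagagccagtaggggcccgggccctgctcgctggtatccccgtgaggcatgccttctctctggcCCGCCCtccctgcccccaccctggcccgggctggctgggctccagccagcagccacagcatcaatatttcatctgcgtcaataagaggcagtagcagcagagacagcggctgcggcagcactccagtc
Npr3: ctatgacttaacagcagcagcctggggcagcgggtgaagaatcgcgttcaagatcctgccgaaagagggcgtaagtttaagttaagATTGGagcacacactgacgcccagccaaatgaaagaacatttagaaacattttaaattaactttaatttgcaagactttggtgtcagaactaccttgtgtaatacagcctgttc
Sfrp5: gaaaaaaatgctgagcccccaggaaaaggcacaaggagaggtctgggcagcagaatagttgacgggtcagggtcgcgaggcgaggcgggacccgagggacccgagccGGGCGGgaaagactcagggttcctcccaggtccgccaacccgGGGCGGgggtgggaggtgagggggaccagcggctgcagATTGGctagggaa

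Of the motifs searched on both strands, the core of the TATA box was TATAA. The CCAAT box was searched as its own letters, and the GC box as GGGCGG. The site of C/EBP factors, regulators of adipocyte genes, was TTGCGNAA, where N is any base. The core of nuclear receptor sites was AGGTCA. The E-box was CACGTG. In the Lep promoter, TATAA began 31 bases before the start, the C/EBP motif 55 bases before it and a GC box 98 bases before it. The C/EBP match reads the same way on both strands, and TATAA also matched there on the other strand, 1 base further out. Among all 32851 promoters, in windows of 300 bases, TTGCGNAA occurred in 0.798% and TATAA in 24.9%. A GC box was found in the Lep, Sncg and Sfrp5 promoters and in 35.7% of all promoters. Those of Sfrp5 began 43 bases and 1 base before the start, the latter running across it. A CCAAT box was found in the Npr3 and Sfrp5 promoters and in 37.4% of all promoters. The Npr3 match began 64 bases before the start, but the Sfrp5 match began 37 bases after it. AGGTCA (16.3% of all promoters) and CACGTG (7.15%) had no match in these 4 windows, and no motif was shared by all 4. No base lay in matches of 2 different motifs. A match is a description of letters in these windows.

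The deposited values are log2 expression. They run from 6.95, with a floor near 7, to 14.79. The arrays of a tissue had mean correlations with each other of 0.986 to 0.992 in WAT and 0.969 to 0.990 in BAT, and the number of arrays limits the precision. Adipoq, the adipocyte gene for adiponectin, was at 13.99 to 14.42 in WAT and 13.25 to 13.74 in BAT. Ucp1, the uncoupling protein that defines brown fat, was at 7.08 to 10.63 in WAT and 13.55 to 14.41 in BAT. The highest Ucp1 values in WAT were those of EPA/DHA replicate 2 (10.63) and corn-oil replicate 4 (9.38). The mean of 8 skeletal muscle markers ran from 7.89 to 12.66 over the BAT arrays, and the mean of 6 liver markers ran from 8.81 to 12.18 over the WAT arrays. In WAT the liver markers differed in level. Group means of albumin (Alb) and fibrinogen (Fgb) stayed near the floor, at 7.05 to 7.12, while Apoa2 (11.68 to 12.93), Ttr (11.34 to 12.48), Apoa1 (up to 11.31) and Ambp (10.03 to 11.04) lay far above it, with Serpina1a (8.55 to 9.40) and Apoh (7.66 to 8.22) between. Of the muscle markers in WAT, Acta1 was at 10.29 to 10.78 and the other 7 at 7.04 to 7.47, with muscle creatine kinase (Ckm) at 7.04 to 7.05. In these bulk samples, fewer cells of a type and less RNA per cell cannot be told apart. The design names 4 mice per diet but does not tie each array to a mouse, so p-values measure the spread between these arrays, which may in part be technical. Because the mice were picked as typical of their diet, this spread may be smaller than among mice that were not picked. Differences are given on the deposited log2 scale with ± their standard error, and the test throughout is limma with Benjamini-Hochberg adjustment over all kept probes.

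All 5 genes were higher in WAT than in BAT, on each of the 3 diets. Lep had 13.42, 13.72, 14.14 and 14.21 in WAT of the EPA/DHA mice, against 9.33, 8.63, 9.55 and 9.25 in their BAT. On corn oil, Lep had 14.17, 14.29, 14.63 and 14.70 in WAT, against 11.56, 11.11, 11.83 and 10.19 in BAT. On the low-fat diet, Lep had 13.31, 14.36, 14.14 and 13.21 in WAT, against 9.76, 8.36, 7.79 and 9.05 in BAT. The WAT and BAT arrays did not overlap on any diet. Ordered by mean, the Lep groups were WAT corn oil, WAT EPA/DHA, WAT low-fat, BAT corn oil, BAT EPA/DHA and BAT low-fat. In that order no neighbouring pair within a tissue passed the test, though the BAT corn-oil arrays did not overlap the arrays of either other diet.

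The WAT minus BAT difference of Lep was 4.69 ± 0.38 on EPA/DHA, 3.28 ± 0.38 on corn oil and 5.02 ± 0.38 in low-fat mice, the highest, the 25th and the third highest of 14262 genes. On the WAT arrays only 2 to 189 of the 45281 probes were brighter than Lep, and on corn-oil replicate 4 only 2. The Lep probe was thus close to the top of the scale in WAT, where its differences from BAT and between diets may be understated. The deposited table carries no saturation flag, so saturation itself was not tested.

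Sncg differed between WAT and BAT by 4.24 ± 0.26 on EPA/DHA, 3.20 ± 0.26 on corn oil and 4.34 ± 0.26 in low-fat mice. This probe was at 12.93 to 13.83 in WAT, where 99 to 238 probes were brighter, so its differences may be understated as well. Npr3 differed by 2.95 ± 0.31, 2.48 ± 0.31 and 3.61 ± 0.31 on the same diets. Bmp3 differed by 1.38 ± 0.13, 1.60 ± 0.13 and 1.82 ± 0.13, and Sfrp5 by 0.56 ± 0.13, 1.62 ± 0.13 and 0.86 ± 0.13. All 5 passed on each diet, with adjusted p-values of 0.00191 and below. Of all 14262 genes, 37.7% passed in either direction on EPA/DHA, 41.1% on corn oil and 43.7% in low-fat mice. Those higher in WAT made up 20.1%, 22.8% and 23.3%. In BAT, Sfrp5 (7.09 to 7.28) and Bmp3 (7.10 to 7.48) lay near the floor on every array, so their differences from WAT may be understated too. The dimmest Npr3 probe, ILMN_2568364, stayed at 7.03 to 7.15 on every array and did not pass on any diet, while the other 5 Npr3 probes and both Sncg probes passed on all 3 diets.

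**Figure D1:**
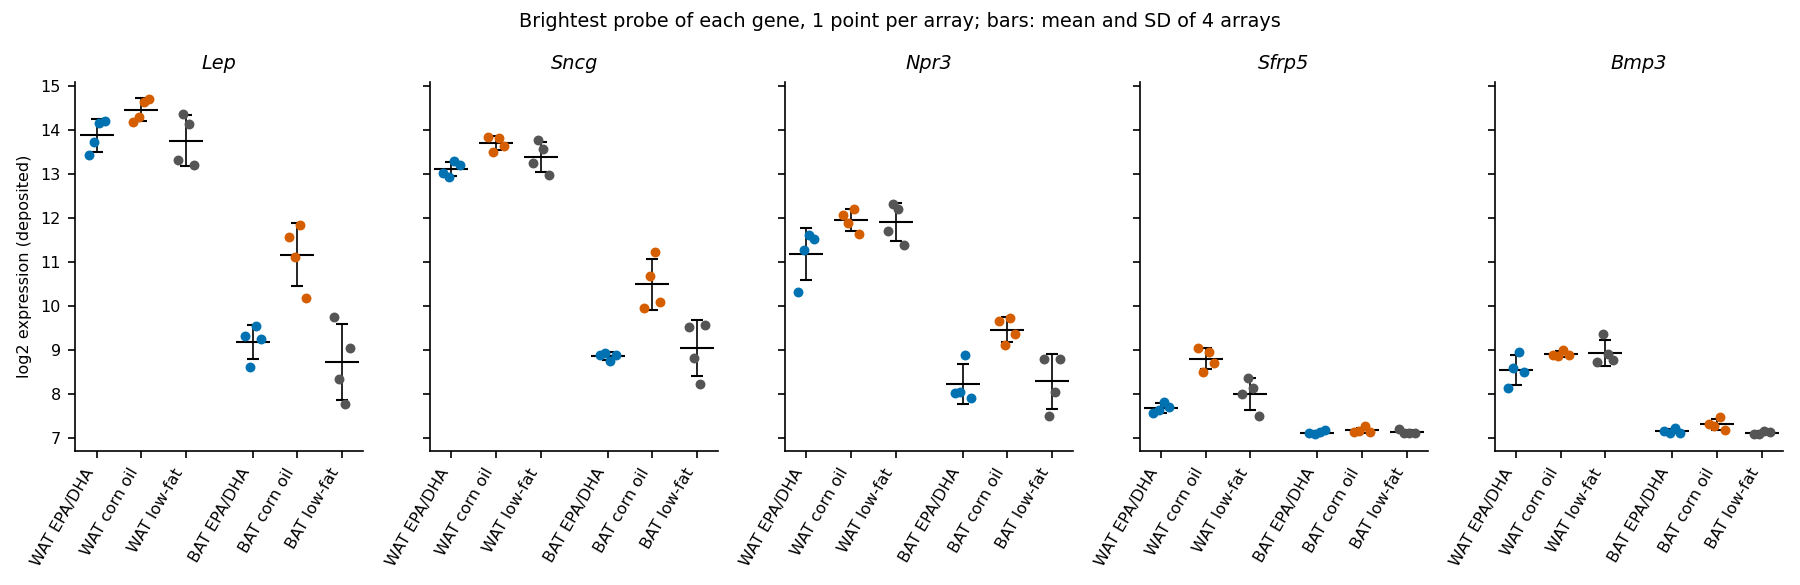
Log2 expression of the brightest probe of each of the 5 genes on all 24 arrays, WAT at the left and BAT at the right of each panel, with the diets in the order EPA/DHA, corn oil and low-fat. Points are arrays, and bars give the mean and SD of 4 arrays; all 5 genes sit higher in WAT, and the BAT corn-oil arrays of Lep, Sncg and Npr3 lie above the other BAT arrays.

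In BAT, every corn-oil array lay above every low-fat array for Lep, Sncg and Npr3, and these were among the largest differences of any gene in that tissue. None of them passed the test after adjustment. For Lep, the corn-oil arrays (10.19 to 11.83) all lay above the low-fat arrays (7.79 to 9.76). Lep averaged 11.17 ± 0.72 in corn-oil BAT and 8.74 ± 0.85 in low-fat BAT (SD, n = 4 each). The difference of 2.43 ± 0.44 (95% interval 1.47 to 3.40) was the largest positive one of 13400 genes. Its unadjusted limma p was 1.7e-04 and its adjusted p was 0.185.

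Sncg in BAT had 9.96, 10.69, 11.22 and 10.10 on corn oil, against 9.54, 8.83, 8.24 and 9.58 on the low-fat diet. The groups did not overlap, and the lowest corn-oil array lay 0.38 above the highest low-fat array. The difference was 1.45 ± 0.32 (limma adjusted p = 0.24), the fifth highest of all genes. The second Sncg probe, ILMN_2939277, gave 1.18 ± 0.21 (limma adjusted p = 0.185). The nerve and Schwann cell markers, of which 4 of 9 were kept, averaged 7.84 to 8.00 on the corn-oil arrays and 7.77 to 7.90 on the low-fat arrays, and these ranges overlapped. Whether nerve contributes to the Sncg signal was not tested.

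Npr3 in BAT had 9.66, 9.13, 9.72 and 9.37 on corn oil, against 8.80, 7.52, 8.06 and 8.80 on the low-fat diet, with no overlap. The difference was 1.18 ± 0.30 (limma adjusted p = 0.325). All 5 kept Npr3 probes gave a positive difference, between 0.34 and 1.18, and in each the 2 groups did not overlap. Bmp3 had 7.32, 7.28, 7.48 and 7.20 on corn oil, against 7.10, 7.10, 7.17 and 7.14 on the low-fat diet. This was a difference of 0.19 ± 0.05 close to the floor (limma adjusted p = 0.367), without overlap. Sfrp5, at the floor in BAT, differed by 0.04 ± 0.04 (limma adjusted p = 0.816).

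In this BAT comparison limma called 0 of the 5 genes and 0 of 13400 genes (0%). At an unadjusted p under 0.05 there were 4 of the 5 genes, against 9.1% of all genes (1220). The groups did not overlap for 4 of the 5, against 5.15% of all genes in either direction and 2.26% with corn oil higher. Because the 5 genes were chosen with earlier results of these data known, these counts are a description. The median difference over the 5 genes was 1.18, and over all genes it was -0.0031. In 1 fit over all 24 arrays, which pools the spread of both tissues, 88 genes passed, Lep (adjusted p = 0.00582) and Sncg (adjusted p = 0.0157) among them. Npr3 had an adjusted p of 0.0881 in that fit. The Lep groups it pooled had SDs of 0.26 to 0.58 in WAT, near the top of the scale, and of 0.40 to 0.85 in BAT. Leaving out any 1 of the 12 BAT arrays gave Lep differences between 2.12 and 2.77, with adjusted p-values from 0.178 to 0.488.

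Skeletal muscle genes had positive differences in BAT too, in all 8 of the markers. Between Lep and Sncg in the order of differences stood Myl2 (1.78 ± 1.21), Tnnc1 (1.52 ± 1.03) and Tnnt1 (1.51 ± 1.11), muscle genes whose corn-oil and low-fat ranges overlapped. They are named here because of that place. The 8 muscle markers averaged 10.34 to 12.54 on the corn-oil arrays and 9.07 to 11.31 on the low-fat arrays, and none of the 8 passed. With this muscle score in the fit, the differences were 2.49 ± 0.48 for Lep, 1.33 ± 0.34 for Sncg and 1.21 ± 0.33 for Npr3. The 9 brown adipocyte markers averaged 10.52 to 10.97 on corn oil and 10.94 to 11.45 on the low-fat diet. The 7 adipocyte markers averaged 11.17 to 11.36 on corn oil and 11.35 to 11.46 on the low-fat diet. Of the kept markers of other cell types, 8 of 9 macrophage, 7 of 7 endothelial and 5 of 5 stromal progenitor ones had positive differences. The median differences of these were 0.21, 0.09 and 0.19. Mesothelial (1 of 3), liver (1 of 5) and epididymis and testis markers (1 of 3) were mostly not positive. No marker of these lists passed. The part of all these cell types in the Lep, Sncg and Npr3 differences was not tested.

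**Figure D2:**
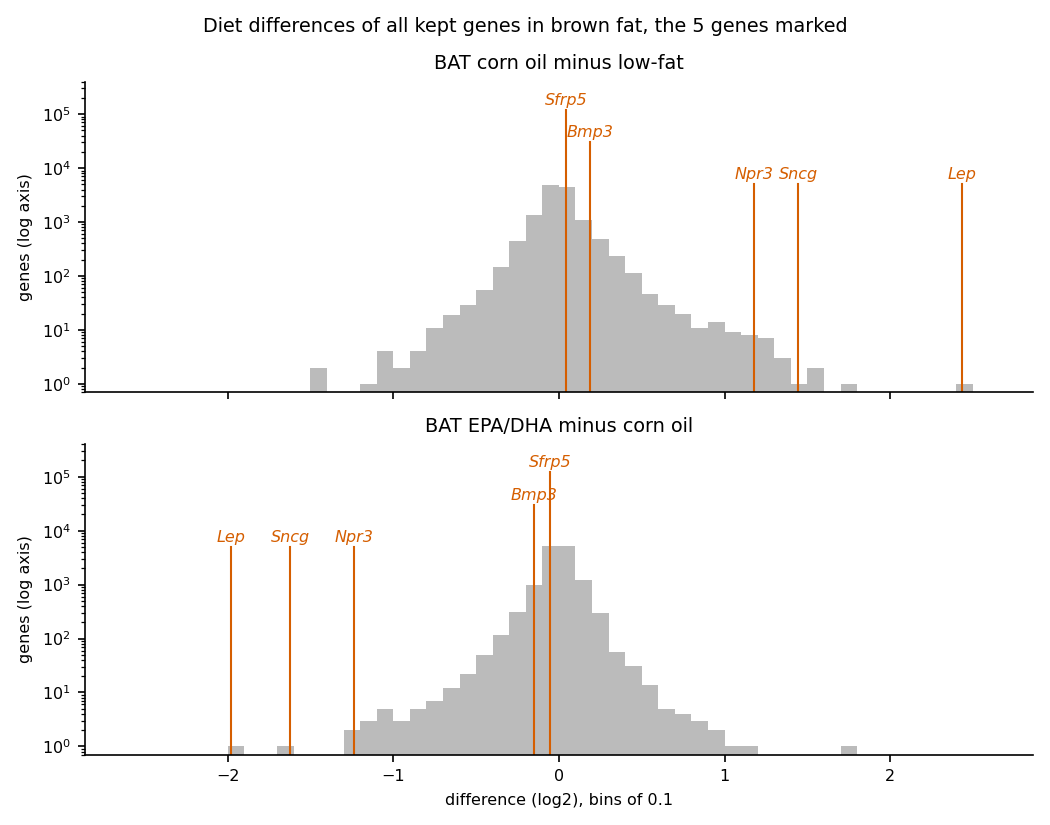
Number of genes, on a log axis, by their diet difference in BAT in bins of 0.1, for corn oil minus low-fat (top) and EPA/DHA minus corn oil (bottom). Vertical lines mark the 5 genes: Lep lies at 2.43 in the top panel and at -1.98 in the bottom panel, at the edge of all 13400 genes in both, while Sfrp5 and Bmp3 lie near 0.

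Every EPA/DHA array of BAT lay below every corn-oil array for Lep, Sncg and Npr3, again without a call. This comparison shares its corn-oil arrays with the one above, so the 2 are not independent. Lep had 9.33, 8.63, 9.55 and 9.25 on EPA/DHA, against 11.56, 11.11, 11.83 and 10.19 on corn oil. The groups did not overlap, and the difference of -1.98 ± 0.44 (limma adjusted p = 0.612) was the lowest of all genes. Sncg had 8.89, 8.94, 8.75 and 8.90 on EPA/DHA, an SD of 0.08, against 9.96, 10.69, 11.22 and 10.10 on corn oil. Its difference of -1.62 ± 0.32 (limma adjusted p = 0.581) was the second lowest.

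Npr3 had 8.04, 8.06, 8.90 and 7.93 on EPA/DHA, against 9.66, 9.13, 9.72 and 9.37 on corn oil. The difference was -1.24 ± 0.30 (limma adjusted p = 0.75), the fourth lowest of all genes, and the groups did not overlap in any of the 5 kept probes (-1.24 to -0.31). Bmp3 differed by -0.15 ± 0.05 and Sfrp5 by -0.05 ± 0.04, both near the floor and both with overlapping groups. Limma called 0 of the 5 genes and 0 of 13400 genes (0%). At an unadjusted p under 0.05 there were 4 of the 5 genes and 4.99% of all genes. The groups did not overlap for 3 of the 5, against 3.71% of all genes, or 1.54% with EPA/DHA lower. The fit over all 24 arrays called 3 genes, Sncg among them (adjusted p = 0.0286), while Lep had an adjusted p of 0.115.

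The muscle score of BAT ran from 7.89 to 12.66 on EPA/DHA and from 10.34 to 12.54 on corn oil. With it in the fit, the differences were -2.03 ± 0.47 for Lep, -1.54 ± 0.33 for Sncg and -1.26 ± 0.32 for Npr3. Of the kept markers, 1 of 9 macrophage, 1 of 7 endothelial and 1 of 5 stromal progenitor ones had positive differences for EPA/DHA against corn oil. For mesothelial and liver markers it was 3 of 3 and 5 of 5. None of these passed, and the part of these cell types was not tested. Between EPA/DHA and the low-fat diet, BAT values overlapped for all 5 genes, while 2.63% of all genes did not overlap. Lep differed by 0.45 ± 0.44 (95% interval -0.51 to 1.42), Sncg by -0.18 ± 0.32, Npr3 by -0.06 ± 0.30, Bmp3 by 0.04 ± 0.05 and Sfrp5 by -0.01 ± 0.04. Limma called 0 of the 5 there, with adjusted p-values of 0.986 and above, and 0.00746% of all genes. None of the 5 had an unadjusted p under 0.05, against 4.77% of all genes, and the fit over all 24 arrays called none of them either.

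**Figure D3:**
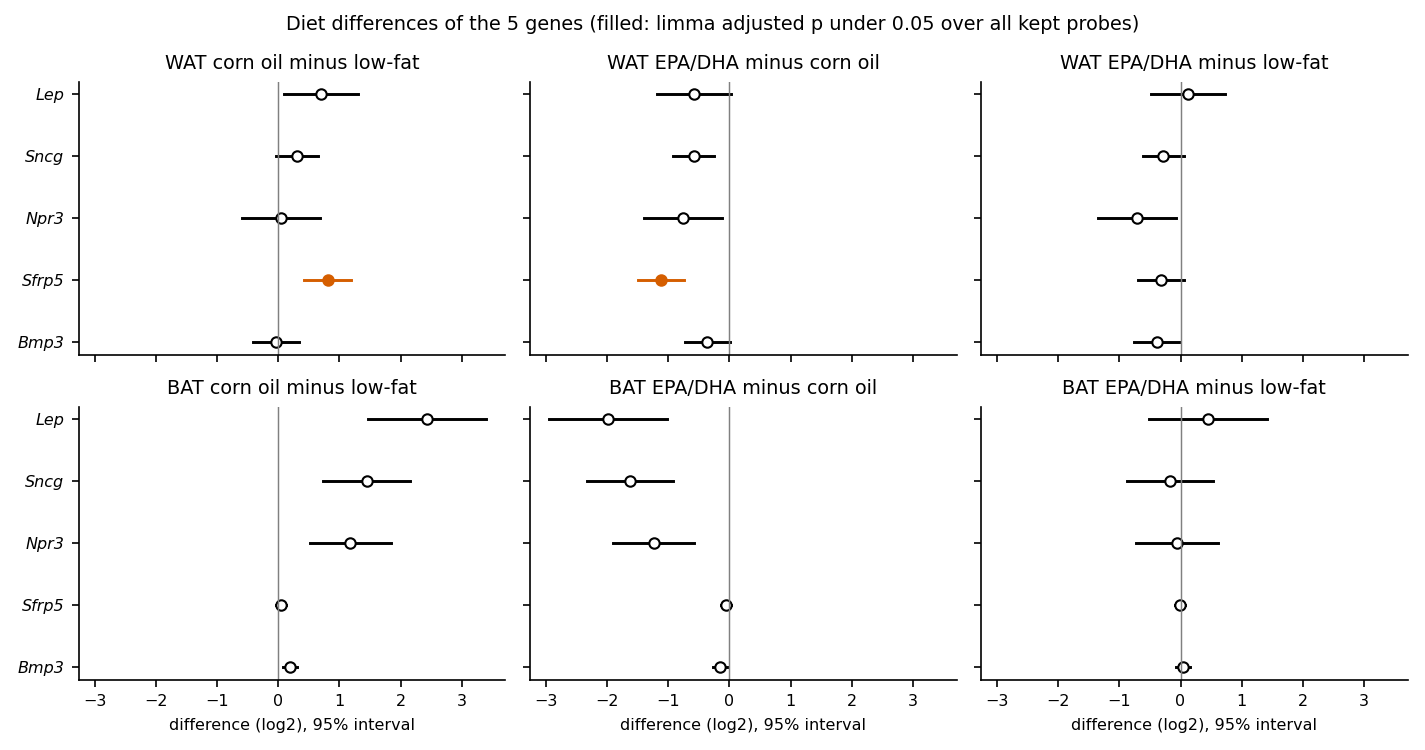
Difference of each gene between diets in log2 units with its 95% interval, in WAT (top row) and BAT (bottom row). Filled symbols mark an limma adjusted p under 0.05: only Sfrp5 in WAT reaches it, at 0.81 for corn oil minus low-fat and -1.12 for EPA/DHA minus corn oil, while the largest differences are those of Lep in BAT.

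In WAT the gene that passed was Sfrp5, which was at the floor in BAT. Sfrp5 had 7.58, 7.63, 7.84 and 7.71 on EPA/DHA, 9.05, 8.51, 8.97 and 8.72 on corn oil, and 8.00, 8.37, 8.15 and 7.50 on the low-fat diet. Every corn-oil array lay above every array of the other diets, and the EPA/DHA and low-fat arrays overlapped. Sfrp5 rose by 0.81 ± 0.17 on corn oil relative to the low-fat diet (limma adjusted p = 0.0344). It fell by 1.12 ± 0.17 on EPA/DHA relative to corn oil (limma adjusted p = 0.0123), the 16th lowest difference of 13349 genes. EPA/DHA against the low-fat diet gave -0.31 ± 0.17 (limma adjusted p = 0.734).

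The first of these calls was close to the threshold. It was lost with no filter (adjusted p = 0.0504) and with the replicate number as a block (adjusted p = 0.0586). It was also lost without EPA/DHA replicate 4 (0.81, adjusted p = 0.0519), without corn-oil replicate 1 (0.73, 0.0882), 3 (0.75, 0.0831) or 4 (0.84, 0.0712), and without low-fat replicate 1 (0.80, 0.0793), 3 (0.86, 0.0546) or 4 (0.64, 0.0575). The EPA/DHA against corn oil call held without any 1 array (limma adjusted p = 0.00345 to 0.0391). Without both WAT arrays of high Ucp1, Sfrp5 differed by 0.84 ± 0.20 for corn oil against low-fat (adjusted p = 0.089) and by -1.13 ± 0.22 for EPA/DHA against corn oil (adjusted p = 0.0517). With the liver score in the fit these were 0.80 ± 0.18 (adjusted p = 0.0524) and -1.10 ± 0.19 (adjusted p = 0.0318). With the brown adipocyte score in the fit both calls held, at 0.81 ± 0.17 (adjusted p = 0.0386) and -1.05 ± 0.20 (adjusted p = 0.0349).

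The 7 adipocyte markers averaged 11.56 to 11.71 on EPA/DHA, 11.39 to 11.52 on corn oil and 11.57 to 11.67 on the low-fat diet, so the corn-oil arrays were the lowest. None of these markers passed. The 10 macrophage markers averaged 9.24 to 9.83 on EPA/DHA, 9.59 to 9.89 on corn oil and 9.34 to 9.68 on the low-fat diet, and these ranges overlapped. Their median difference was 0.23 for corn oil against low-fat (7 of 10 positive) and -0.29 for EPA/DHA against corn oil (2 of 10 positive), with none past the threshold. The 7 endothelial markers averaged 8.89 to 8.99 on EPA/DHA, 9.01 to 9.11 on corn oil and 8.93 to 9.10 on the low-fat diet, with median differences of 0.05 and -0.11. The muscle score averaged 7.94 on EPA/DHA, 7.93 on corn oil and 7.87 in low-fat mice. Among the 5 kept muscle markers, Pvalb and Ryr1 passed in the same directions as Sfrp5, with adjusted p-values of 0.0312 and below. Pvalb averaged 7.16 on EPA/DHA, 7.44 on corn oil and 7.15 in low-fat mice. The other 3 kept ones did not pass, and Acta1 was lowest on corn oil (10.78 on EPA/DHA, 10.29 on corn oil and 10.40 in low-fat mice), as was Tnnc2 (7.34, 7.32 and 7.47). The part of these cell types in the Sfrp5 differences was not tested.

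Lep in WAT spanned 13.42 to 14.21 on EPA/DHA, 14.17 to 14.70 on corn oil and 13.21 to 14.36 on the low-fat diet. The corn-oil mean was the highest, but its arrays overlapped both other groups. The difference was 0.70 ± 0.28 for corn oil against low-fat (95% interval 0.09 to 1.30, limma adjusted p = 0.233). For EPA/DHA against corn oil it was -0.57 ± 0.28 (95% interval -1.18 to 0.03, limma adjusted p = 0.374). Sncg had 13.02, 12.93, 13.28 and 13.20 on EPA/DHA, against 13.83, 13.49, 13.82 and 13.64 on corn oil, with no overlap. Its difference of -0.59 ± 0.15 did not pass (limma adjusted p = 0.0867). The second Sncg probe gave -0.48 ± 0.15 (limma adjusted p = 0.134), and there the groups overlapped. The brightest Sncg probe, with the difference of -0.59, passed with a trended and robust prior (limma adjusted p = 0.0327). It also passed without low-fat replicate 4 (limma adjusted p = 0.0403). Corn oil against low-fat gave 0.30 ± 0.15 for Sncg (limma adjusted p = 0.377).

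Npr3 in WAT had 10.32, 11.28, 11.62 and 11.52 on EPA/DHA, 12.07, 11.89, 12.21 and 11.63 on corn oil, and 11.71, 12.32, 12.20 and 11.40 on the low-fat diet. EPA/DHA and corn oil met without overlapping, at 11.62 and 11.63, and EPA/DHA replicate 1 was the lowest of the 12 arrays. The difference was -0.77 ± 0.29 for EPA/DHA against corn oil (limma adjusted p = 0.234) and -0.72 ± 0.29 for EPA/DHA against low-fat (limma adjusted p = 0.591), the ninth lowest of all genes by the brightest probe. Without EPA/DHA replicate 1 these were -0.48 (adjusted p = 0.361) and -0.43 (adjusted p = 0.652). The other 5 Npr3 probes gave differences of smaller size, from -0.70 to -0.03 for EPA/DHA against corn oil and from -0.40 to -0.01 for EPA/DHA against low-fat. In the first of these comparisons the groups overlapped in all 5, so only 1 of 6 probes was free of overlap. Corn oil against low-fat gave 0.05 ± 0.29, and 0.02 to 0.31 over the other 5 probes. Bmp3 had 8.15, 8.59, 8.97 and 8.51 on EPA/DHA, 8.90, 8.86, 9.00 and 8.89 on corn oil, and 8.72, 9.37, 8.90 and 8.78 on the low-fat diet. The corn-oil arrays were the least spread, with an SD of 0.06. Bmp3 differed by -0.36 ± 0.17 for EPA/DHA against corn oil and by -0.39 ± 0.17 for EPA/DHA against low-fat, and neither passed.

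For corn oil against low-fat in WAT, limma called 1 of the 5 genes, against 3.87% of all 13349 genes in either direction and 2.05% as higher. The groups did not overlap for 1 of the 5, against 12.4% of all genes, or 6.54% with corn oil higher. An unadjusted p under 0.05 was found for 2 of the 5 (Sfrp5 and Lep), against 19.7% of all genes. For EPA/DHA against corn oil, limma called 1 of the 5, against 2.34% of all genes in either direction and 1.17% as lower. The groups did not overlap for 3 of the 5, against 10.2% of all genes, or 4.95% with EPA/DHA lower. An unadjusted p under 0.05 was found for 3 of the 5 (Sfrp5, Sncg and Npr3), against 17.6% of all genes. All 5 differences of that comparison were negative, with a median of -0.59 against 0.0016 over all genes. For EPA/DHA against low-fat, limma called 0 of the 5 and 0.03% of all genes. Of the 5, Npr3 and Bmp3 had an unadjusted p under 0.05, against 9.06% of all genes, and 1 fit over all 24 arrays called none of the 5.

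**Figure D4:**
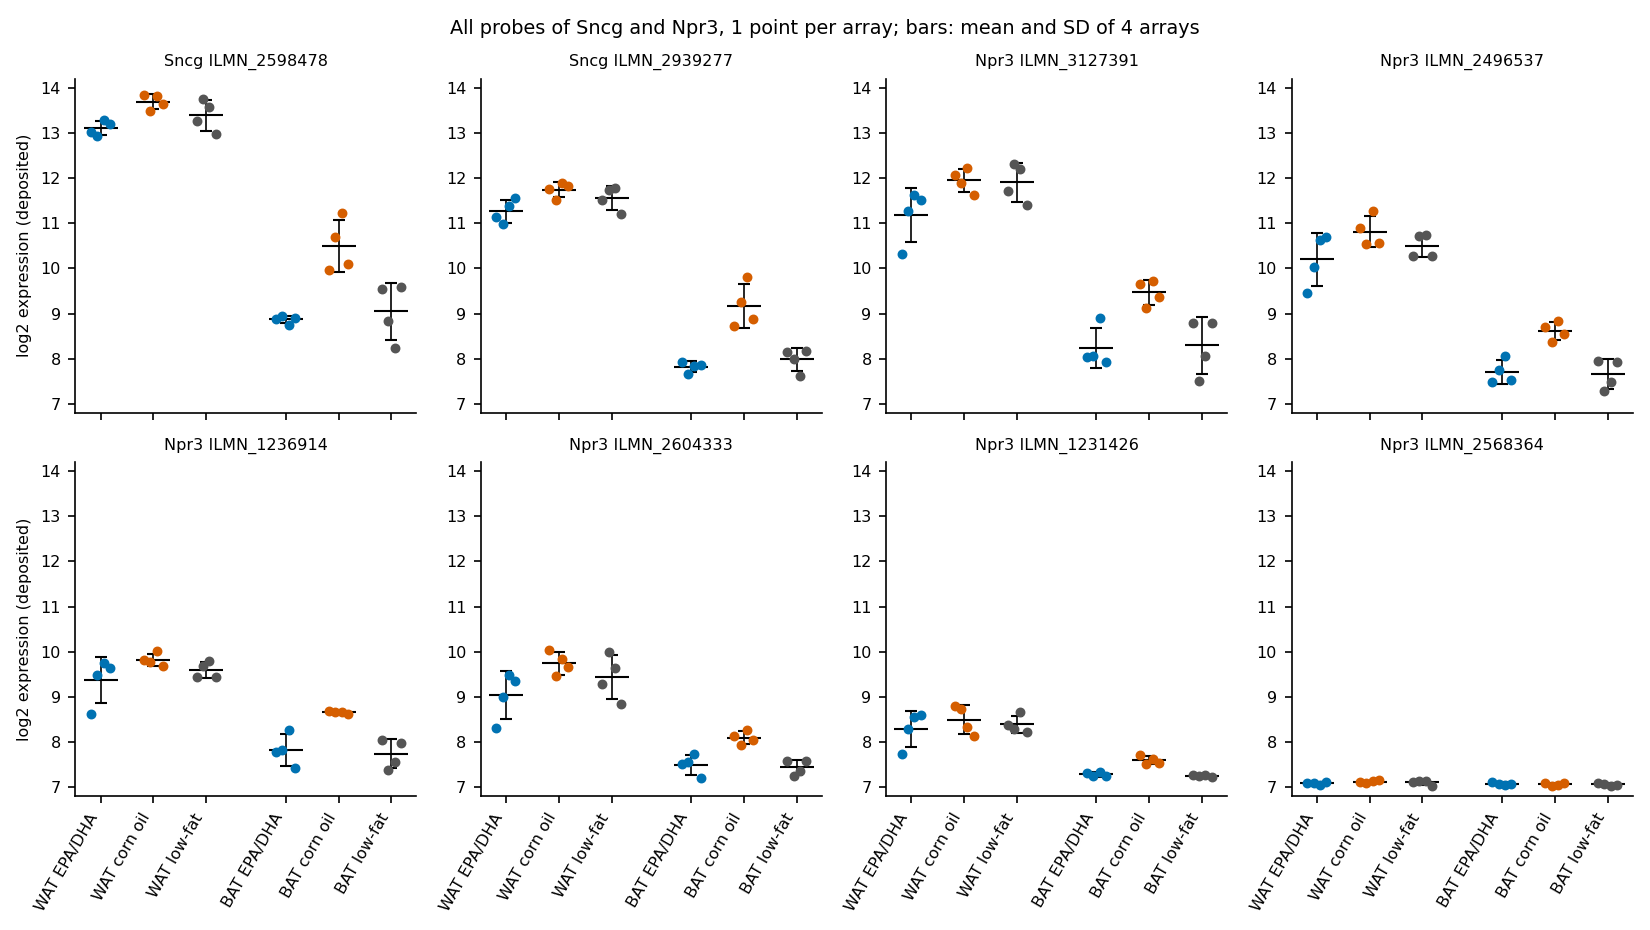
Log2 expression of the 2 Sncg and 6 Npr3 probes on all 24 arrays, in the same layout as the plot of the brightest probes. In BAT the corn-oil arrays lie above both other diets in both Sncg probes and in 5 Npr3 probes, and the sixth Npr3 probe, ILMN_2568364, stays between 7.03 and 7.15.

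The diet differences of the 2 tissues were then set against each other (difference in WAT minus difference in BAT). For EPA/DHA against corn oil, Sfrp5 gave -1.07 ± 0.18 (limma adjusted p = 0.0105) and was called, against 0.252% of 14262 genes. In BAT, Sfrp5 was at the floor on both diets, so a fall there could not be seen and the contrast largely restates the WAT difference. Lep gave 1.41 ± 0.54 (limma adjusted p = 0.529), Sncg 1.04 ± 0.37 (limma adjusted p = 0.466), Npr3 0.47 ± 0.44 and Bmp3 -0.21 ± 0.18, none past the threshold. An unadjusted p under 0.05 was found for 3 of the 5 genes, against 8.45% of all genes. For corn oil against low-fat, Lep gave -1.74 ± 0.54 (limma adjusted p = 0.186), Sncg -1.14 ± 0.37 (limma adjusted p = 0.214) and Npr3 -1.13 ± 0.44 (limma adjusted p = 0.308).

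For that same contrast Sfrp5 gave 0.76 ± 0.18 (limma adjusted p = 0.0677). Limma called 0 of the 5, against 0.652% of all genes, and 4 of the 5 had an unadjusted p under 0.05, against 13.1%. Sfrp5 passed without corn-oil replicate 2 of WAT (0.86, adjusted p = 0.0339) and without low-fat replicate 2 of WAT (0.88, adjusted p = 0.018). For Lep, Sncg and Npr3 a diet difference that is larger in BAT than in WAT was thus not called, and Lep in WAT was near the top of the scale. The brightest Sncg probe was high in WAT too, while the second was at 10.98 to 11.89 there. For EPA/DHA against low-fat, limma called 0 of the 5 and 0.00701% of all genes. There 1 of the 5 genes, Bmp3 (-0.43 ± 0.18), had an unadjusted p under 0.05, against 6.44% of all genes.

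Within WAT, pairs of the 5 genes varied together from array to array. Over all 12 WAT arrays Sncg and Sfrp5 had a Pearson r of 0.93 and a Spearman rho of 0.94, but the corn-oil arrays of Sfrp5 stood apart. Over the 12 WAT arrays, with diet means removed, Sncg and Sfrp5 had a Pearson r of 0.94 (permutation p = 2.0e-04, adjusted p = 0.004 over 20 pairs of genes and tissues) and a Spearman rho of 0.89 (permutation p = 7.5e-04). Without the 2 arrays farthest from the median of Sncg, r was 0.87. Npr3 and Sfrp5 had r = 0.68 (permutation p = 0.00342, adjusted p = 0.0342), rho = 0.77 (permutation p = 0.00156), and r = 0.66 without the 2 arrays farthest from the median of Npr3. The other 8 pairs in WAT had r between 0.59 and 0.80 and did not pass after adjustment. In BAT the corn-oil arrays of Lep, Sncg and Npr3 stood apart, so only values with diet means removed are given. Lep and Sncg then had r = 0.68 (permutation p = 0.0837, adjusted p = 0.12) and rho = 0.50 (permutation p = 0.191). Lep and Npr3 had r = 0.64 (permutation p = 0.062, adjusted p = 0.0962) and rho = 0.64 (permutation p = 0.0501), and none of the 10 BAT pairs passed.

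**Figure D5:**
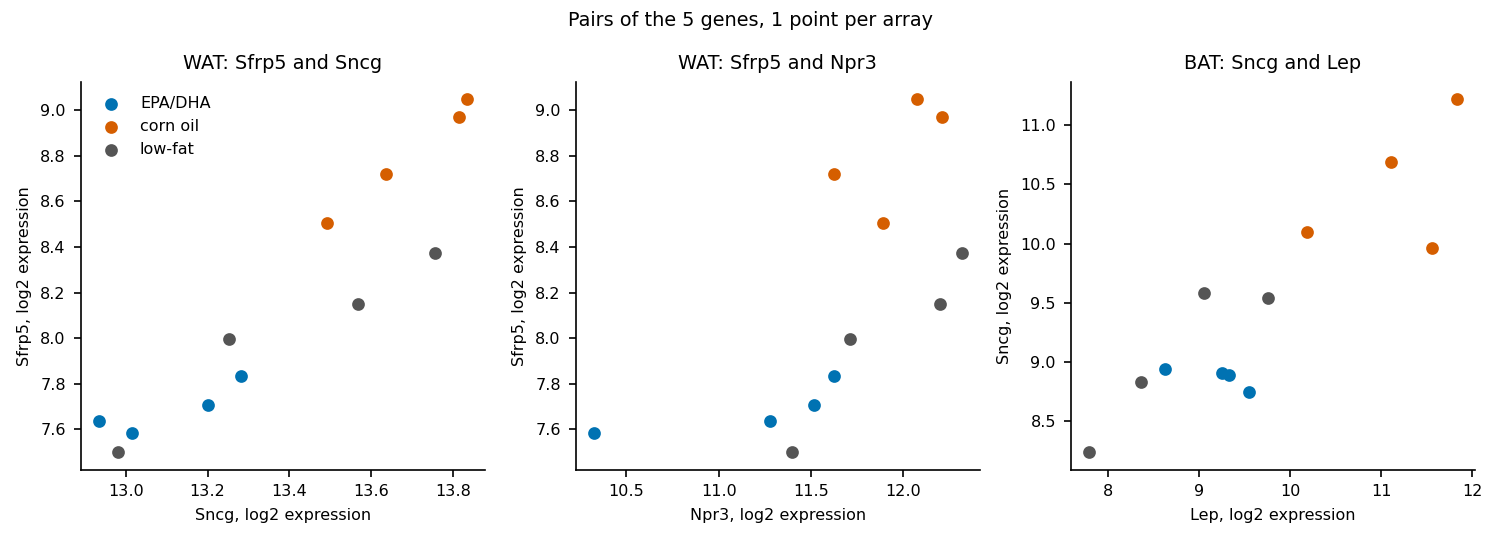
Log2 expression of pairs of the genes, 1 point per array and 12 arrays per panel, coloured by diet (EPA/DHA, corn oil, low-fat). Sfrp5 and Sncg in WAT lie near a line within each diet, Sfrp5 is higher on corn oil at like levels of Npr3, and in BAT the 4 corn-oil arrays stand apart at high Lep and Sncg.

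The genes most like each of the 5 were then read from the Pearson r over the 12 arrays of a tissue, as a description, since all arrays share their normalisation and the diets differ. In WAT the highest r with Lep were those of B3gntl1 (0.96), Pigu (0.95) and Med16 (0.95), and the lowest was that of Slc1a3, a glutamate transporter (-0.92). With diet means removed, these were 0.94, 0.93, 0.94 and -0.93. For Sfrp5 the highest were Palld (0.95), a protein of the actin cytoskeleton, Ccn5 (0.95), a secreted matricellular protein, and Col18a1 (0.95), a basement membrane collagen, and the lowest was Dnajc28 (-0.96). These were lower in size with diet means removed, at 0.77, 0.70, 0.86 and -0.79. For Sncg they were Sar1a (0.94), Col18a1 (0.94), Srpx2 (0.92) and, as the lowest, Tmem53 (-0.93), or 0.87, 0.89, 0.85 and -0.89 with diet means removed.

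For Npr3 in WAT they were Wipi1 (0.93), an autophagy protein, Nid2 (0.93), a basement membrane nidogen, Rapgef1 (0.92) and, as the lowest, Rbfa (-0.89). With diet means removed these were 0.94, 0.95, 0.86 and -0.86. For Bmp3 in WAT they were Ctnnbip1 (0.90), Fads3 (0.90), Wipi1 (0.89) and, as the lowest, Rbfa (-0.94), or 0.88, 0.92, 0.88 and -0.92 with diet means removed. Wipi1 and Rbfa were thus named for both genes.

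In BAT, Apol6, an apolipoprotein L gene, was among the 3 highest for both Lep (0.95) and Sncg (0.91). The others for Lep were Pkp2 (0.94), a desmosomal plakophilin, and Fgf1 (0.93), and the lowest was Aspg (-0.94). With diet means removed, these 4 values were 0.79, 0.74, 0.72 and -0.81. The others for Sncg were Ccdc80 (0.94), an extracellular matrix protein, and Slc6a13 (0.91), and the lowest was Gys2 (-0.89). With diet means removed, Apol6, Ccdc80, Slc6a13 and Gys2 had 0.77, 0.89, 0.74 and -0.78 with Sncg. For Npr3 they were Rassf1 (0.94), Daam1 (0.92), Tmem181a (0.91) and, as the lowest, Apoc1 (-0.94), an apolipoprotein, or 0.87, 0.82, 0.79 and -0.91 with diet means removed. Sfrp5 and Bmp3 in BAT were too close to the floor for such a reading.

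Few genes of the pathways around the 5 genes passed in WAT, and none passed in BAT, for corn oil against low-fat or EPA/DHA against corn oil. Of 12 kept genes of leptin signalling, 1 passed. Leprot, whose transcript overlaps that of the leptin receptor, fell in WAT on EPA/DHA relative to corn oil, with 9.65 on EPA/DHA and 10.03 on corn oil (-0.38 ± 0.07, limma adjusted p = 0.0274). None of the 12 passed for corn oil against low-fat. For comparison, limma called 3.87% of all genes for corn oil against low-fat and 2.34% for EPA/DHA against corn oil. None of the 7 natriuretic peptide genes and none of the 5 kept genes of synucleins and their partners passed in WAT. Of 20 secreted frizzled-related and Wnt genes none passed in WAT, and their median difference for corn oil against low-fat was -0.0006, against -0.0021 over all genes. Of 27 genes of bone morphogenetic proteins and their signalling, 1 passed. Acvr1c, a receptor of activins and related ligands, fell on corn oil relative to the low-fat diet (-0.72 ± 0.13, limma adjusted p = 0.0183), with 10.05 on corn oil and 10.76 in low-fat mice.

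Of 26 further genes tied to fat mass or adipocyte size, 2 rose and 1 fell in WAT for corn oil against low-fat, where 3.87% of all genes passed. Hp, an acute-phase haemoglobin-binding protein made by adipocytes and liver, rose by 0.81 ± 0.16 (14.04 on corn oil and 13.23 in low-fat mice). Timp1, an inhibitor of matrix metalloproteinases, rose by 0.81 ± 0.19 (8.23 on corn oil and 7.42 in low-fat mice). Nnat, a proteolipid of the endoplasmic reticulum, fell by 1.20 ± 0.19 (9.14 on corn oil and 10.34 in low-fat mice). Hp fell by 0.89 ± 0.16 on EPA/DHA relative to corn oil (13.15 on EPA/DHA and 14.04 on corn oil), with 1 of 26 genes past the threshold there, against 2.34% of all genes.

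In BAT none of the 25 kept genes of that list passed. For corn oil against low-fat, 9 of the 25 had an unadjusted limma p under 0.05, against 9.1% of all genes, with a median difference of 0.10. For EPA/DHA against corn oil, it was 7 of the 25, against 4.99% of all genes, with a median of -0.03. Of these, Fgf1, Hcar1, Rarres2, Hp, Cidec and Kcnk2 are named after their values were seen. Fgf1, a growth factor of adipose remodelling, had 8.49 to 8.87 on corn oil and 8.06 to 8.17 on the low-fat diet (0.57 ± 0.09, limma adjusted p = 0.174). It had 8.16 to 8.37 on EPA/DHA, again without overlap with corn oil (-0.40 ± 0.09). Hcar1, the lactate receptor of adipocytes, ran the other way, with 8.48 to 8.85 on EPA/DHA, 7.98 to 8.26 on corn oil and 8.52 to 9.25 on the low-fat diet. Rarres2, which encodes the adipokine chemerin, differed by 0.83 ± 0.28 for corn oil against low-fat and by -0.82 ± 0.28 for EPA/DHA against corn oil, with overlapping groups. Others did not follow the order of Lep. Hp differed by 0.70 ± 0.20 for corn oil against low-fat but by 0.04 ± 0.20 for EPA/DHA against corn oil. Cidec (-0.35 ± 0.14) and Kcnk2 (-0.16 ± 0.05) were lower on corn oil than on the low-fat diet. Over the 25 genes, 17 differences were positive for corn oil against low-fat and 11 for EPA/DHA against corn oil.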

How the data were processed

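RNA from WAT and BAT was hybridised to Illumina mouse arrays, 4 per tissue and diet. The deposited values are log2 expression, and lumi 2.18.0 is named per the submitters' processing notes. Whether the log2 is plain or variance-stabilised is not given in the sources used here. Ranked by brightness, the arrays hold nearly the same values at each rank (largest gap 0.0069), as quantile normalisation leaves them, and the table was used as deposited. Gene symbols came from the platform annotation and were updated through RefSeq (34818 of 34885 probes with 1 symbol matched, 18 probes had several and 10378 none). The brightest probe stands for a gene. Probes whose mean in a tissue exceeded the 40th percentile (7.11) were kept, 27168 per tissue.

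Diets were compared within a tissue with limma 3.58.1 (R 4.3.3) over its 12 arrays, and tissues and interactions over all 24. An adjusted p under 0.05 was a call. Correlations used permutation tests (scipy 1.17.1). The code was tested on simulated data. All probes of the 5 genes are named. Of each gene list up to 4 genes past the threshold per diet comparison within a tissue are named by smallest p. The same holds for WAT against BAT on the low-fat diet, except for the synuclein and fat mass lists, given as counts. List genes of the other tissue comparisons and of the interactions are not named. Of likeness the 3 highest and the lowest r are named, except for Sfrp5 and Bmp3 in BAT, which lay near the floor. The genes and lists were chosen with earlier results of these data known. Alternatives were the filter, normalisation, prior, array weights, 1 fit over all 24 arrays, a replicate block, other probes and leaving out each array. A fit without 2 WAT arrays of high Ucp1 and 3 fits with a liver, brown adipocyte or muscle score were chosen after seeing the data. Deviations of same-numbered arrays had correlations of -0.36 to 0.55 within a tissue and -0.21 to 0.07 between tissues. The same number was the best match in 6 of 24 cases within a tissue and 1 of 12 between tissues. Replicate numbers were therefore not taken as pairs in the main fit. The WAT replicate 1 arrays did deviate together between diets (0.45, 0.50 and 0.55). Their liver scores were the highest of each diet (11.33, 12.18 and 11.99), and what they share was not tested.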

Additional observations from a re-analysis of the deposited data

Results flagged for a closer look

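Npr3 in BAT of EPA/DHA replicate 3 stood apart from its group, at 8.90 against 7.93 to 8.06 in the other 3 arrays. The gap to the nearest array was 0.86 of the group's whole range. Sfrp5 in BAT of low-fat replicate 1 stood apart at 7.21 against 7.11 to 7.13 in the other 3 arrays, all near the floor, with a gap of 0.85 of the range. Both gaps exceeded Dixon's critical value for 4 arrays. These were 2 of 66 groups examined, and chance alone gives about 1 in 20 groups.

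For EPA/DHA against corn oil, the contrast between the tissues was called for Sfrp5. The diet difference was -1.12 in WAT and -0.05 in BAT, a contrast of -1.07 ± 0.18 (limma adjusted p = 0.0105). Sfrp5 was near the floor on all BAT arrays, so a fall there could not be seen. Whether the tissues differ in their response was therefore not settled.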

How the results depend on the processing

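No difference of the 5 genes changed sign while called. In WAT, corn oil against low-fat called 1 of the 5 genes, Sfrp5. It called 0 with no filter (Sfrp5 limma adjusted p = 0.0504), with the replicate block (0.0586), without the 2 arrays of high Ucp1 (0.089) and with the liver score (0.0524), and 0 to 1 when each array was left out. EPA/DHA against corn oil in WAT called 1. It called 2 with a trended and robust prior, where Sncg joined Sfrp5, 0 without the 2 arrays of high Ucp1, and 1 to 2 when each array was left out. In BAT, 1 fit over all 24 arrays called 2 of the 5 for corn oil against low-fat and 1 for EPA/DHA against corn oil, against 0 in each by the tissue's own fit. The interaction for corn oil against low-fat called 0, but 1 (Sfrp5) with a filter at the 60th percentile (limma adjusted p = 0.0491) or a trended prior (0.0473), and 0 to 1 when each array was left out. The cause of these changes was not tested.

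Counts of all genes also moved. For WAT corn oil against low-fat, 517 genes were called, against 328 with the replicate block and 254 without the 2 arrays of high Ucp1. For WAT EPA/DHA against corn oil, 313 were called, against 192 without those arrays and 180 with the liver score. For WAT EPA/DHA against low-fat, 4 were called, against 0 with no filter and 2 in 1 fit over 24 arrays, with the block, or with the liver or brown adipocyte score. For BAT corn oil against low-fat, 0 were called, against 3 with a trended prior and 88 in 1 fit over 24 arrays. For BAT EPA/DHA against corn oil, 0 were called, against 3 in that fit. For BAT EPA/DHA against low-fat, 1 was called, against 13 in that fit, 2 with array weights, no filter or the 60th percentile, and 0 with a trended prior, the block or the muscle score. The interaction for corn oil against low-fat called 93, against 59 with no filter and 56 without the arrays of high Ucp1, and that for EPA/DHA against low-fat called 1, against 2 with array weights. When each array was left out in turn, the counts were 173 to 546 for WAT corn oil against low-fat (lowest without low-fat replicate 4), 118 to 405 for WAT EPA/DHA against corn oil (lowest without EPA/DHA replicate 3) and 0 to 2 for WAT EPA/DHA against low-fat. In BAT they were 0 to 2, 0 to 0 and 0 to 2 for the same comparisons. The interactions gave 30 to 99 for corn oil against low-fat (lowest without WAT low-fat replicate 4), 23 to 53 for EPA/DHA against corn oil, where 36 were called (lowest without BAT corn-oil replicate 1), and 0 to 2 for EPA/DHA against low-fat. The replicate block changed no other count of the 5 genes.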

Other observations

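On the low-fat diet, limma called 43.7% of all genes between WAT and BAT in either direction, and 23.3% as higher in WAT. The shares called in either direction in the first 4 lists below were near 43.7%, so those totals say nothing particular about the lists. The shares higher in WAT lay above 23.3%, most so for the bone morphogenetic protein and Wnt lists. Whether that is particular to the lists was not tested, and all these counts are a description. Of 28 genes of bone morphogenetic proteins and their signalling, 13 were higher in WAT than in BAT and 1 was lower. Fstl1, a secreted follistatin-like protein, differed by 2.08, Chrd, a bone morphogenetic protein antagonist, by 0.77, the receptor Acvr1 by 0.75 and the ligand Bmp4 by 0.57. Of 21 secreted frizzled-related and Wnt genes, 10 were higher in WAT and 0 were lower, among them the Wnt effector Tcf7l2 (0.73), the Wnt inhibitor Nkd1 (0.55), Dkk3 (0.34) and Sfrp4 (0.23), a relative of Sfrp5.

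Of 13 leptin signalling genes, 5 were higher in WAT and 2 were lower, with Leprot at 0.67, Leprotl1 at 0.60, the signal transducer Stat3 at 0.57 and the adaptor Sh2b1 at -0.90. Of 8 natriuretic peptide genes, 2 were higher, the receptor Npr2 (0.90) and the phosphodiesterase Pde2a (0.35), and 2 were lower, the protease Furin (-0.68) and the phosphodiesterase Pde5a (-0.11). Of 5 genes of synucleins and their partners, 4 were higher, by 0.12 to 0.50. Of 27 further genes tied to fat mass or adipocyte size, 19 were higher and 1 was lower, and the median difference over the list was 0.85.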
